A study of Rattus norvegicus with 29 samples.

Results

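The sodium-potassium ATPase, or sodium pump, is described here through its beta subunits Atp1b1, Atp1b2 and Atp1b3 in the rat basolateral amygdala. Every probe set whose only annotated symbol is one of these was taken, which gave 4 of the array's 15866 probe sets that are not controls, for 3 of its 10411 annotated genes. Atp1b1 has 2 of them (1367814_at and 1386937_at, both designed from the same source sequence), Atp1b2 has 1369798_at and Atp1b3 has 1398300_at, and all 4 passed the filter on low signals that left 9520 probe sets. The 29 arrays hold total RNA of basolateral amygdala from rats (Rattus norvegicus): 5 after pain, 5 after isoflurane, 5 after fear conditioning, 5 after fear conditioning in the presence of isoflurane, and 9 baseline controls. The 4 treated groups were taken at 6 h, and no time is given for baseline. Fear conditioning is a form of learning in which a signal paired with an aversive event comes to be feared, pain is a component of it, and isoflurane is an inhaled anaesthetic that impairs memory. Strain, sex, age and doses are not given in the labels.

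The pump uses ATP to carry sodium out of a cell and potassium into it, and so maintains the gradients that electrical signalling and the uptake of transmitters draw on. An alpha subunit carries the ions, while a beta subunit is needed for folding of the alpha subunit and its delivery to the cell membrane. In brain, Atp1b1 is the common beta subunit of neurons, Atp1b2 was first described as an adhesion molecule on glia and is abundant in astrocytes, and Atp1b3 is found in many cell types. In the current rat assembly (GRCr8) Atp1b1 lies at chr13:79319708-79340226, Atp1b2 at chr10:54817473-54823708 and Atp1b3 at chr8:105789824-105821151. Where in each transcript the probes lie was not looked up, and the signals of different probe sets are on different scales, so no probe set's level is set against another's.

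The promoters of Atp1b2 and Atp1b3 are shown for orientation, because both genes are present in the table of RefSeq promoters used here (GRCr8, 250 bases before to 50 bases after the start, on the minus strand). Capitals mark GC boxes (GGGCGG, on either strand) and the TATA box (TATAAA), which were searched on both strands and do not overlap each other.
Atp1b2, chr10:54823659-54823958: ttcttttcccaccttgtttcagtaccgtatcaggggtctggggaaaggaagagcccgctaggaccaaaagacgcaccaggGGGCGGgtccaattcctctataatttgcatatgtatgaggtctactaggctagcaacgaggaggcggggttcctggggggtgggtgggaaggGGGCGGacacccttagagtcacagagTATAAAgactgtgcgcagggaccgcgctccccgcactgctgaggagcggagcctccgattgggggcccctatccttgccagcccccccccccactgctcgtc
Atp1b3, chr8:105821102-105821401: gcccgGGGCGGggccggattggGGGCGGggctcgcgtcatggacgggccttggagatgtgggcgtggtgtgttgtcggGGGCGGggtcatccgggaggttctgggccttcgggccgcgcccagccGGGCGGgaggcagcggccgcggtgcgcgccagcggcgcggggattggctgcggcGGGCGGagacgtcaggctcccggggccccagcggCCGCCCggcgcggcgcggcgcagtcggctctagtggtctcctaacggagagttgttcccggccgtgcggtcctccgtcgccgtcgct
The Atp1b2 window holds 2 GC boxes and 1 TATAAA and is 60.3% G or C, and the Atp1b3 window holds 6 GC boxes and no TATAAA and is 77.7% G or C. Of 33469 rat promoter windows of that length, 33.1% hold a GC box and 14.2% hold TATAAA, and their median is 51.7% G or C. The arrays measured no promoter activity, and these matches are descriptions only.

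The deposited signals were scaled per array by the authors, and here they were quantile normalized and put on the log2 scale. One array stood apart: pain replicate 3 had the highest median signal (292.2, against 210.7 to 249.9 on the others) and a correlation of 0.92 with the median array, against at least 0.97 elsewhere. No pair of arrays held identical values. Neuronal markers were plainly present, with Snap25 (a synaptic membrane protein) between 7210.4 and 10809.3 and Slc17a7 (the vesicular glutamate transporter of cortical and amygdalar projection neurons, 1368987_at) between 1537.0 and 4815.4 signal units. Tbr1, a transcription factor of such neurons, was below the filter. Individual rats are numbered for 15 of the arrays, and the p-values therefore measure the spread between these arrays, which may in part be technical. The labels name a kit for labelling RNA on baseline and on isoflurane arrays but on no others, so a kit difference cannot be told apart from pain, conditioning or conditioning under isoflurane against baseline, or from conditioning under isoflurane against isoflurane. In the series the isoflurane arrays are numbered apart from those of all other groups, and whether this reflects a batch is not given. Such a batch could not be told apart from isoflurane minus baseline, conditioning under isoflurane minus isoflurane, or the interaction. In whole tissue, fewer cells of a type and less RNA per cell cannot be told apart either.

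Atp1b1 stood lower on average in each of the 4 treated groups than at baseline on both of its probe sets, by little, and no difference passed the test across all probe sets. Its deposited signals on 1367814_at were 8833.2, 9034.8, 6945.0, 10917.9 and 8856.3 after pain. They were 8426.9, 9600.1, 8900.3, 8373.2 and 9780.1 after isoflurane. After conditioning they were 8516.1, 7558.0, 8934.6, 8708.3 and 9744.0. Under isoflurane, the conditioned rats gave 7219.4, 9038.7, 9279.0, 9566.6 and 9711.3, and the 9 baseline arrays ran between 9128.1 and 10888.8 with a median of 9856.5. The highest signal of all was a pain array and the lowest was pain replicate 3, so the treated groups overlapped baseline. Of the 20 treated arrays, 1 lay above the baseline median on this scaling, and 6 did after quantile normalization.

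The other Atp1b1 probe set, 1386937_at, read 6599.4, 8023.4, 4949.2, 8571.3 and 7930.2 after pain and 7272.4, 7366.0, 6753.4, 7363.5 and 8154.1 after isoflurane. It read 6763.9, 5071.5, 6266.1, 7908.2 and 7971.0 after conditioning and 6952.2, 6686.0, 7347.3, 7811.6 and 8354.7 after conditioning under isoflurane. At baseline the lowest, median and highest signals were 6961.0, 8281.8 and 8783.4. Pain replicate 3 and conditioning replicate 2 were the lowest arrays, and every treated group overlapped baseline here too. Of the 20 treated arrays, 2 lay above the baseline median as deposited and 9 after quantile normalization.

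On the normalized log2 scale, 1367814_at averaged 13.14 ± 0.14 after pain, 13.16 ± 0.04 after isoflurane, 13.07 ± 0.17 after conditioning and 13.16 ± 0.16 after conditioning under isoflurane, against 13.25 ± 0.11 at baseline (SD, n = 5 each and 9 at baseline). The means of 1386937_at were 12.84 ± 0.24, 12.86 ± 0.12, 12.73 ± 0.24 and 12.89 ± 0.11 in the same treated groups, against 12.95 ± 0.15 at baseline. Both probe sets put the groups in one order, baseline highest, then conditioning under isoflurane, isoflurane, pain and conditioning. Every step between neighbours was at most 0.11, smaller than the SD of at least 1 of the groups beside it, so neighbours in that order did not differ beyond their spread. The order is that of the quantile normalized values, and with arrays centred on their medians pain was the lowest group on 1367814_at.

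**Figure D1:**
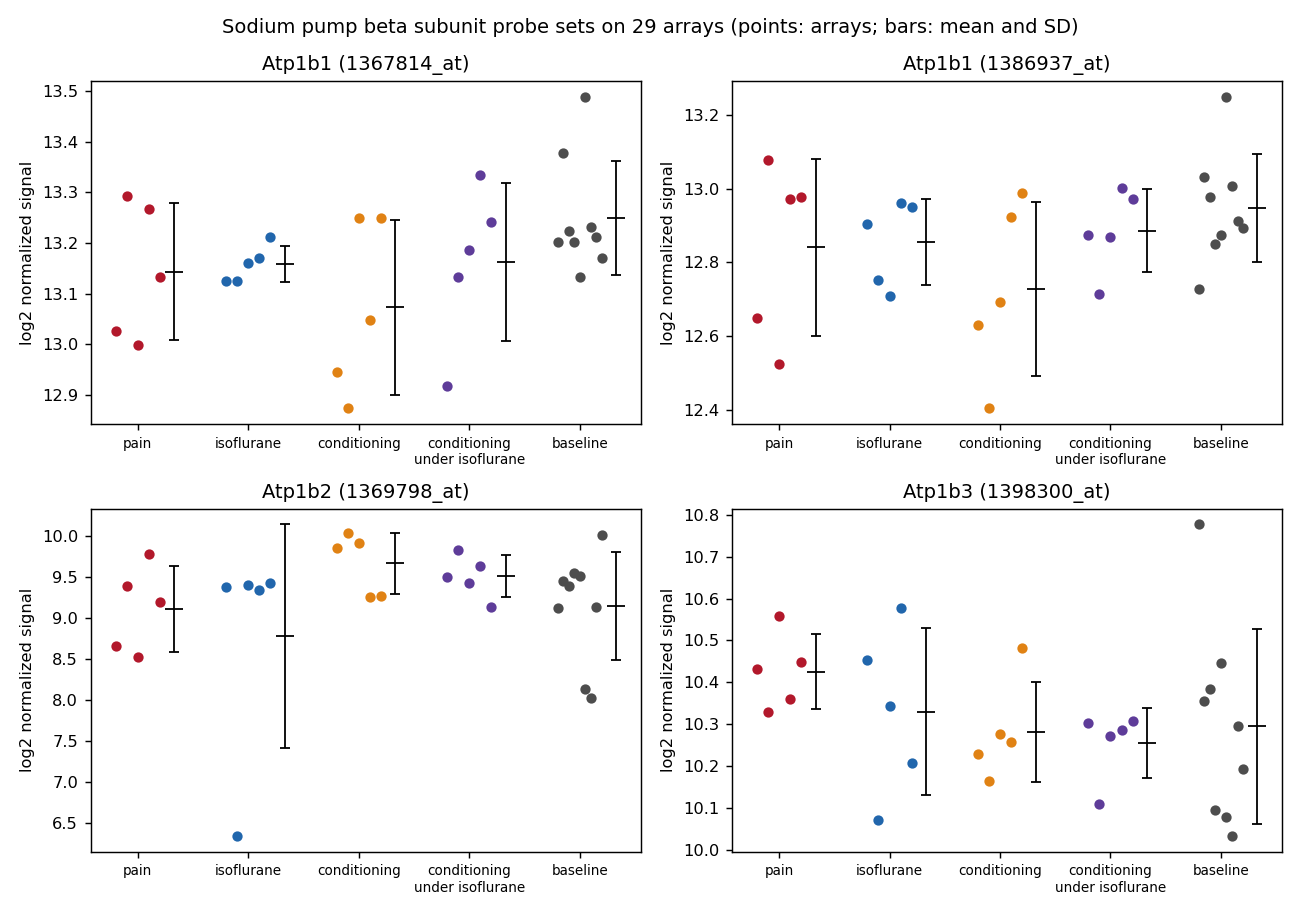
Normalized log2 signal of the 4 beta subunit probe sets, with 1 point per array and the mean and SD of each group at its right (n = 5, baseline n = 9); each panel has its own axis. Atp1b1 means are highest at baseline on both probe sets, and the Atp1b2 panel is stretched by isoflurane replicate 2 at 6.33.

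With quantile normalization and with the deposited scaling, conditioning against baseline gave the largest Atp1b1 difference among the 4 treated groups on both probe sets. With arrays centred on their medians that held for 1386937_at (-0.33, against -0.30 for pain) but not for 1367814_at (-0.27, against -0.29 for pain). After quantile normalization it was -0.18 on 1367814_at (SE 0.07, 95% interval -0.32 to -0.03, adjusted p = 0.425), with 3 of the 5 conditioning arrays at or below the baseline mean and 2 above it. On 1386937_at it was -0.22 (SE 0.09, 95% interval -0.41 to -0.03, adjusted p = 0.450), with 1 of 5 conditioning arrays above the baseline mean. Conditioning replicate 2 was at -0.40 relative to the rest of its group on 1386937_at, and without it the differences were -0.13 on 1367814_at and -0.14 on 1386937_at (adjusted p = 0.815 and 0.854). That array also had the highest astrocyte and microglia marker scores of all 29 (0.54 and 0.47), and their part in its low Atp1b1 signal was not tested. In linear terms the conditioning signals were 0.885 and 0.859 times those at baseline. The unadjusted p was 0.0163 and 0.0223, and these were the 2 of 4 beta subunit probe sets under 0.05 in that comparison, both of 1 gene. Over all 9520 probe sets 5.03% were lower and 10.1% differed either way at that unadjusted threshold, and 0% passed after Benjamini-Hochberg adjustment. The other differences had 0 of 4 beta subunit probe sets at that unadjusted threshold, where all probe sets gave 8.96% in pain minus baseline, 5.38% in isoflurane minus baseline and 6.5% in conditioning under isoflurane minus baseline. Between treated groups the shares over all probe sets were 9.04% for conditioning minus pain, 4% for conditioning under isoflurane minus isoflurane, 3.69% for conditioning under isoflurane minus conditioning and 4.79% for the interaction. Nor did the groups separate fully: 0 of 4 beta subunit probe sets had groups that did not overlap in any of the 7 differences. All probe sets gave shares of 0.116% for pain, 0.137% for isoflurane, 0.116% for conditioning and 0.221% for conditioning under isoflurane against baseline, and 1.13%, 0.924% and 0.704% for the 3 differences between treated groups in the order above.

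In the other comparisons with baseline, the 2 Atp1b1 probe sets differed by -0.11 and -0.11 after pain, -0.09 and -0.09 after isoflurane and -0.09 and -0.06 after conditioning under isoflurane, with adjusted p between 0.654 and 0.984. None of the 5 isoflurane arrays lay above the baseline mean of 1367814_at, while 2 of 5 did on 1386937_at. These 4 comparisons share the same baseline arrays, so the common direction is not 4 separate observations. It held with the deposited scaling, where the differences of 1367814_at were -0.17 for pain, -0.14 for isoflurane, -0.19 for conditioning and -0.15 for conditioning under isoflurane. With arrays centred on their medians they were larger, at -0.29 and -0.30 for pain, -0.17 and -0.15 for isoflurane and -0.19 and -0.16 for conditioning under isoflurane, and the median of all probe sets then moved by -0.11, -0.02 and -0.03. Without pain replicate 3 the pain differences were -0.07 and -0.03. Leaving out baseline replicate 6 gave -0.06 and -0.05 for isoflurane and -0.06 and -0.02 for conditioning under isoflurane. The last difference was -0.03 on 1367814_at without replicate 1 of its treated group and -0.02 on 1386937_at without replicate 2. On 1386937_at the pain difference was -0.07 without baseline replicate 6, -0.06 without pain replicate 1 and -0.17 without pain replicate 2, and the isoflurane difference was -0.06 without isoflurane replicate 3. Conditioning minus pain was -0.07 and -0.11 (-0.11 and -0.19 without pain replicate 3), conditioning under isoflurane minus isoflurane was 0.00 and 0.03, and conditioning under isoflurane minus conditioning was 0.09 and 0.16, each with a 95% interval that includes 0.

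The interaction asks whether the difference made by conditioning is another when isoflurane is present, and takes the conditioning minus baseline difference away from the difference of conditioning under isoflurane and isoflurane alone. For Atp1b1 it was 0.18 on 1367814_at (SE 0.10, 95% interval -0.03 to 0.39) and 0.25 on 1386937_at (SE 0.14, 95% interval -0.03 to 0.53), with an adjusted p of 0.959 on both. Neither passed the test, and 0% of all probe sets did.

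The 2 Atp1b1 probe sets varied together from array to array, with Pearson's r of 0.77 and Spearman's rho of 0.73 over 29 arrays (permutation test, p = 1e-05 for both, the smallest that 100000 permutations can give, adjusted p = 6e-05 over the 6 pairs of beta subunit probe sets). Leaving out the 2 arrays farthest from the median gave r = 0.62, and within groups it was 0.72. Both probe sets were designed from the same source sequence, so a positive r was likely beforehand and describes how well they repeat each other. Their log2 difference, 1367814_at minus 1386937_at, averaged 0.31 ± 0.11 (SD, n = 29) and ran between 0.04 and 0.56. No other pair of beta subunit probe sets gave an r beyond 0.18 in size (adjusted permutation p = 0.679 for each), so the 3 genes did not vary together detectably over these arrays.

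Atp1b2 was the most variable of the beta subunits, and its group means were set by a few arrays. The deposited signals were 407.3, 674.9, 417.9, 876.5 and 580.1 after pain and 666.7, 81.4, 674.2, 660.4 and 685.8 after isoflurane. They were 909.9, 1041.7, 966.0, 610.8 and 618.9 after conditioning and 739.4, 917.6, 694.0, 792.3 and 560.0 after conditioning under isoflurane. The baseline arrays ran between 242.7 and 1040.7, with a median of 667.4. Isoflurane replicate 2 was far below the other isoflurane arrays, which lay between 660.4 and 685.8, and baseline replicates 6 and 7 (261.6 and 242.7) were low among the baseline arrays. All treated groups overlapped baseline.

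Mean log2 signals of Atp1b2 were 9.11 ± 0.52 after pain, 8.78 ± 1.37 after isoflurane, 9.67 ± 0.38 after conditioning and 9.51 ± 0.26 after conditioning under isoflurane, against 9.15 ± 0.66 at baseline (SD, n = 5 each and 9 at baseline). The order was thus conditioning, conditioning under isoflurane, baseline, pain and isoflurane, and each step between neighbours (0.04 to 0.36) was smaller than the SD of at least 1 of the groups beside it. Conditioning minus baseline was 0.52 (SE 0.37, 95% interval -0.23 to 1.27, adjusted p = 0.644), and all 5 conditioning arrays lay above the baseline mean. Conditioning minus pain was 0.56 (SE 0.42, 95% interval -0.29 to 1.41, adjusted p = 0.656), again with 5 of 5 conditioning arrays above the pain mean. Neither difference passed the test and both intervals include 0, with upper ends of 2.41 and 2.66 times on the linear scale. Conditioning minus baseline was smaller than the baseline SD, while conditioning minus pain was larger than the SD of either of its groups.

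Pain minus baseline was -0.04 (SE 0.37) for Atp1b2 and 0.11 without pain replicate 3. Isoflurane minus baseline was -0.37 (SE 0.37, adjusted p = 0.984), where 0.0105% of all probe sets were called. Without isoflurane replicate 2 it was 0.24, and the isoflurane mean was then 9.39 ± 0.04 (SD, n = 4). Conditioning under isoflurane minus isoflurane was 0.73 (SE 0.42, 95% interval -0.12 to 1.58, unadjusted p = 0.0899, adjusted p = 0.998) with all 5 isoflurane arrays and 0.12 without replicate 2. The single array therefore set the direction of isoflurane against baseline and most of the size of the second difference. The interaction likewise was 0.21 (SE 0.56) with it and -0.40 without it. Conditioning under isoflurane minus baseline was 0.36 (SE 0.37) and conditioning under isoflurane minus conditioning -0.16 (SE 0.42).

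**Figure D2:**
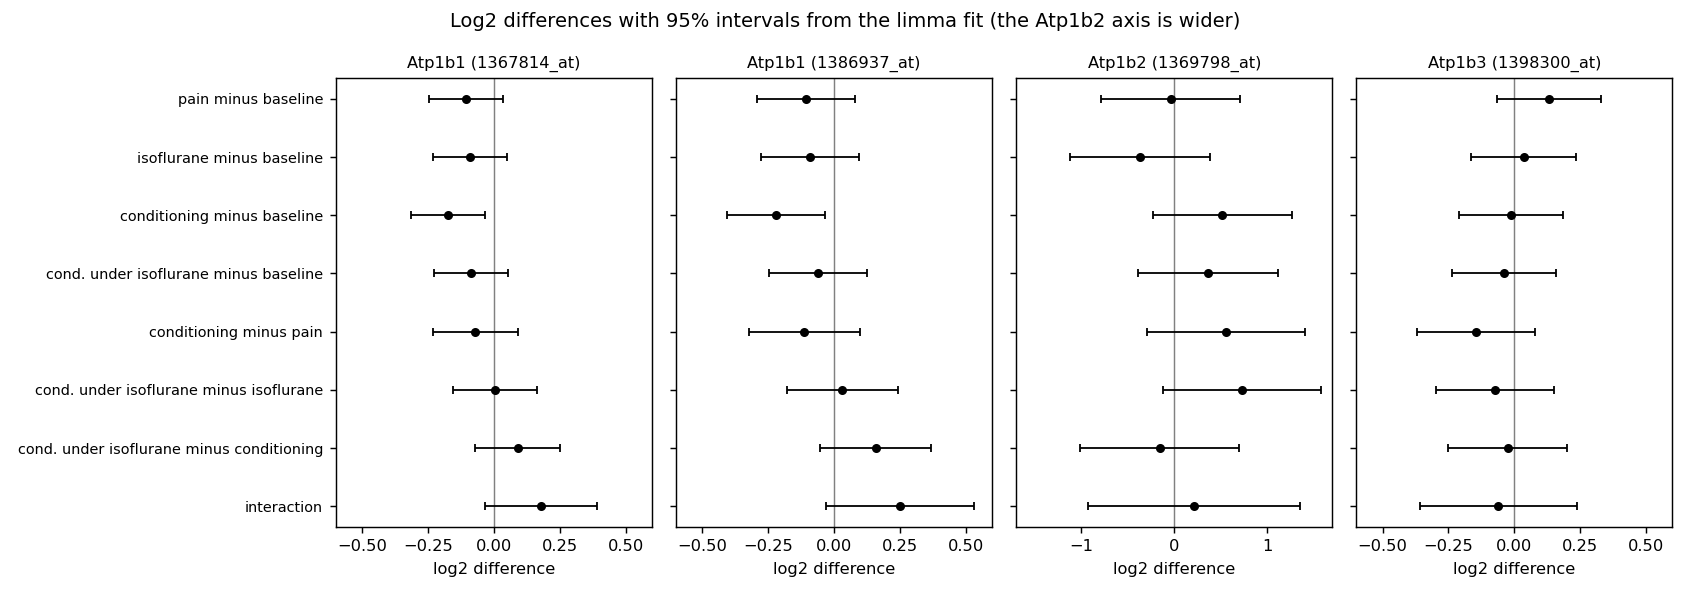
Log2 differences between groups for the 4 probe sets, named at the left as first minus second group, with points for the estimate and bars for its 95% interval in the limma fit over 29 arrays. The intervals of Atp1b1 in conditioning minus baseline lie below 0 before adjustment (upper ends -0.03 and -0.03), and all Atp1b2 intervals include 0 on a wider axis.

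The baseline arrays themselves differed in Atp1b2. Replicates 6 to 9, a split known from earlier work on these data, averaged 8.83 ± 0.94 (SD, n = 4) and replicates 1 to 5 averaged 9.41 ± 0.17 (SD, n = 5). Replicate 9 belongs to the same 4 and was the highest baseline array at 10.02, so the 4 arrays spread widely and are not uniformly low. Pain minus baseline in Atp1b2 was -0.30 against replicates 1 to 5 and 0.28 against replicates 6 to 9, and isoflurane minus baseline was -0.63 and -0.05. For conditioning the 2 values were 0.26 and 0.84, and for conditioning under isoflurane 0.10 and 0.68. With all 9 baseline arrays but replicate 6 or 7, conditioning under isoflurane minus baseline was 0.23 or 0.22.

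The same split moved the other beta subunits. Atp1b1 on 1386937_at averaged 12.89 ± 0.12 on replicates 1 to 5 and 13.02 ± 0.16 on replicates 6 to 9 (SD, n = 5 and 4). Against replicates 1 to 5 its differences were -0.05 for pain, -0.04 for isoflurane, -0.16 for conditioning and -0.0060 for conditioning under isoflurane, and against replicates 6 to 9 they were -0.18, -0.16, -0.29 and -0.13. On 1367814_at the baseline means were 13.23 ± 0.09 and 13.28 ± 0.14, and the 4 differences ran between -0.15 and -0.06 against the first subset and between -0.20 and -0.11 against the second. Atp1b3 averaged 10.41 ± 0.24 and 10.15 ± 0.12, and its pain difference was 0.01 against replicates 1 to 5 and 0.28 against replicates 6 to 9 (adjusted p = 0.9996 and 0.118).

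Within groups, the SD of Atp1b2 over arrays was 0.73 on the log2 scale, at the 99.1st percentile of the 9520 probe sets, whose median was 0.23. Among the 500 probe sets of most similar mean signal it was at the 99.8th percentile. Without isoflurane replicate 2 the SD was 0.49, at the 96.0th percentile, so 1 array accounts for part of that spread. Atp1b1 had SDs of 0.13 and 0.17 and Atp1b3 of 0.17, at the 7.6th, 25.0th and 23.7th percentiles of all tested probe sets. Among the 500 probe sets of most similar mean signal to each, they were at the 51.4th, 78.0th and 40.4th percentiles. Their SDs were thus not unusually low for their signal. Group membership took up 21.3% and 18.1% of the variance of the 2 Atp1b1 probe sets, 16.2% for Atp1b2 and 11.1% for Atp1b3. These shares are not corrected for the number of groups, and fitted group means take up some variance even where groups do not differ. The moderated F test over the 5 groups gave adjusted p-values of 0.712 and 0.735 for Atp1b1, 0.738 for Atp1b2 and 0.847 for Atp1b3, and 0% of all probe sets passed it (7.35% had an unadjusted p under 0.05, and 0 of the 4 here).

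**Figure D3:**
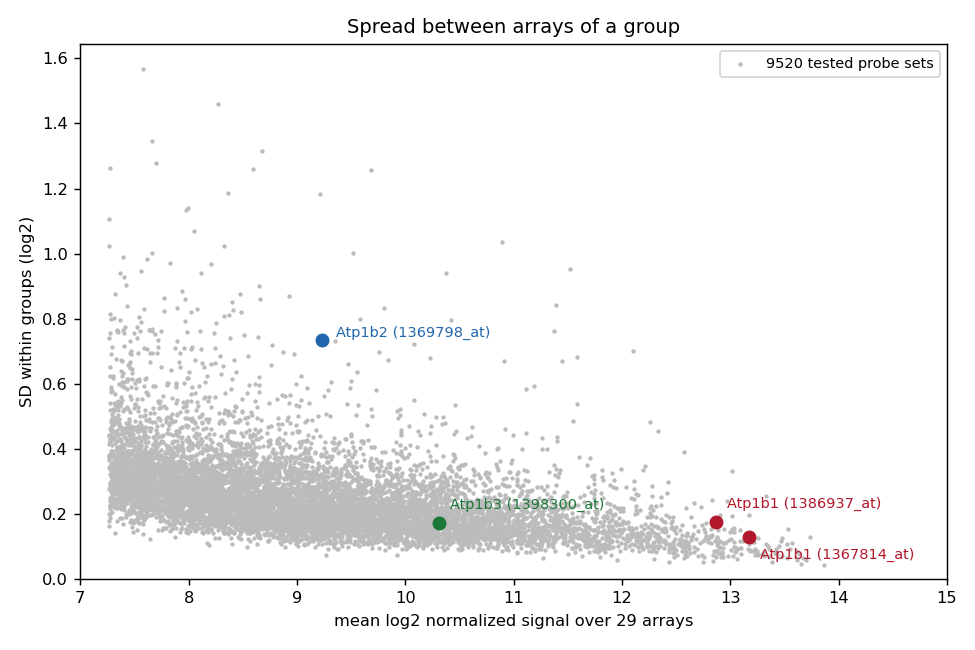
SD within groups against mean log2 signal for the 9520 probe sets tested (grey points) with the beta subunit probe sets in colour; the x axis is the level over 29 arrays. Atp1b2, at 0.73, lies above nearly all probe sets of similar signal, and the other 3 lie between 0.13 and 0.17.

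On isoflurane replicate 2, Atp1b2 was -3.06 on the log2 scale relative to the mean of the other 4 isoflurane arrays, the second lowest value among the 9520 probe sets. In all, 12 probe sets were lower by at least 2 there, 94 were lower by at least 1 and 27 were higher by at least 1. The other beta subunits moved little on that array: Atp1b1 was -0.04 and -0.13 and Atp1b3 -0.33 against the same 4 arrays. Control probe sets at the 3' and 5' ends of 3 transcripts give a measure of RNA integrity and labelling. Isoflurane replicate 2 had the highest ratio of 3' to 5' signal for beta-actin, at 2.21 against 1.14 to 1.98 on the other arrays. The other 2 controls were within the range of the remaining arrays, at 1.19 for GAPDH (1.02 to 1.40) and 2.98 for hexokinase (1.95 to 4.90). Over 29 arrays Atp1b2 gave r = -0.40 with the log2 beta-actin ratio, 0.00 with that of GAPDH and -0.26 with that of hexokinase, and without isoflurane replicate 2 these were -0.11, 0.01 and -0.45. With the same 3 ratios Atp1b1 gave r of 0.30, 0.14 and 0.27 on 1367814_at over 29 arrays. On 1386937_at r was 0.31, 0.36 and 0.25, and for Atp1b3 it was -0.31, -0.39 and -0.07. The part of RNA quality in the low Atp1b2 signal, or in the differences of the other beta subunits, was not tested. Atp1b2 has no second probe set to compare.

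**Figure D4:**
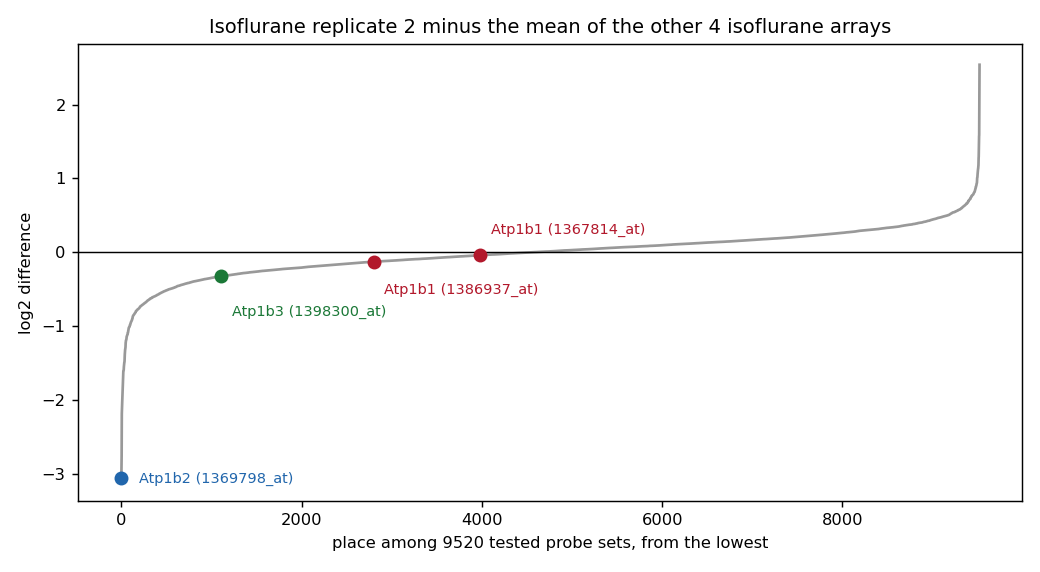
Log2 signal on isoflurane replicate 2 minus the mean of the other 4 isoflurane arrays (y axis) for the 9520 tested probe sets in rising order (x axis, place from the lowest; grey line), with the beta subunits as coloured points. Atp1b2 is second from the lowest at -3.06, and the Atp1b1 and Atp1b3 probe sets lie between -0.33 and -0.04.

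Atp1b3 varied within a narrow range, and none of the differences tested between groups passed the test across all probe sets. Its signals were 1361.9, 1278.4, 1390.2, 1311.1 and 1397.8 after pain and 1425.6, 1075.6, 1282.7, 1531.4 and 1178.9 after isoflurane. They were 1173.9, 1127.2, 1236.9, 1220.7 and 1437.8 after conditioning and 1259.7, 1112.9, 1235.1, 1268.0 and 1273.8 after conditioning under isoflurane. Baseline ran between 1080.8 and 1738.6 with a median of 1271.5. The 5 pain arrays were closely spaced, baseline replicate 1 was the highest array of all, and every treated group lay within the baseline range or overlapped it. The lowest pain array (1278.4) lay above the highest array of conditioning under isoflurane (1273.8). That pair of groups was not tested, and the share of all probe sets that separate there was not computed.

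Mean log2 signals of Atp1b3 were 10.43 ± 0.09 after pain, 10.33 ± 0.20 after isoflurane, 10.28 ± 0.12 after conditioning and 10.26 ± 0.08 after conditioning under isoflurane, against 10.29 ± 0.23 at baseline (SD, n = 5 each and 9 at baseline). Pain minus baseline was 0.13 (SE 0.10, 95% interval -0.07 to 0.33, adjusted p = 0.707), with 5 of 5 pain arrays above the baseline mean. This difference had the other sign, -0.03, when each array was centred on its median, a scaling that moved the median of all probe sets in that comparison by -0.11, and it was 0.10 without pain replicate 3. Isoflurane, conditioning and conditioning under isoflurane differed from baseline by 0.04, -0.01 and -0.04. Conditioning minus pain was -0.14 (95% interval -0.37 to 0.08), and the interaction was -0.06 (SE 0.15). Neighbours in the order of means (pain, isoflurane, baseline, conditioning, conditioning under isoflurane) were at most 0.10 apart, within the SD of at least 1 of the groups beside them.

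The probe sets most similar to each beta subunit across the 29 arrays were looked for among 1-symbol probe sets that passed the filter, as a description. Atp1b1 (1367814_at) was most similar to Fkbp1b (a binding protein of ryanodine receptors, r = 0.79), Iars1 (isoleucyl-tRNA synthetase, 0.73) and Reep5 (a shaping protein of the endoplasmic reticulum, 0.72), and least to Eci1 (a mitochondrial enzyme of fatty acid oxidation, -0.76). Atp1b2 gave 0.79 with Slc1a3 (the glial glutamate transporter GLAST), 0.77 with Septin2 (a GTP-binding cytoskeletal protein) and 0.75 with Scd2 (a fatty acid desaturase), and -0.67 with Sec61g (a subunit of the protein translocation channel). Those values were 0.45, 0.38, 0.43 and -0.12 after the 2 arrays with the most extreme Atp1b2 were left out, so they rested largely on those arrays, isoflurane replicate 2 among them. For Atp1b3 the most similar were Emc3 (a subunit of the endoplasmic reticulum membrane complex, 0.71), Rdh10 (a retinol dehydrogenase, 0.69) and Leprot (0.68), and the least similar was Mknk2 (a protein kinase, -0.71). All arrays share dissection, labelling and scaling, which bear on each such r.

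Cell type markers moved with the beta subunits in several cases. A marker score is the mean, over a list's tested probe sets, of the log2 signal minus that probe set's mean over all arrays, and 40 correlations (4 probe sets, 10 lists) were computed with permutation tests and adjusted together. On Pearson's r 8 of 40 had an adjusted p under 0.05, and on Spearman's rho 1 of 40 had. For Atp1b2 and astrocyte markers Pearson's r was 0.64 (p = 0.00066, adjusted p = 0.0088) and Spearman's rho 0.43 (p = 0.0196, adjusted p = 0.106). Pearson's r was 0.61 within groups, 0.50 without isoflurane replicate 2 and 0.39 without the 2 arrays with the most extreme Atp1b2 signals. All 10 astrocyte genes listed had a tested probe set and none was at 0. Their summed deposited signal ran between 47417.7 and 57835.6 after pain, 46413.7 and 53724.5 after isoflurane, 51817.5 and 67626.5 after conditioning and 48232.9 and 57279.6 after conditioning under isoflurane, against 42524.0 to 55067.3 at baseline. Isoflurane replicate 2 had the lowest score (-0.43) and conditioning replicate 2 the highest (0.54). The list holds Slc1a3, the gene named above as most similar to Atp1b2.

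Atp1b1 ran the other way. With microglia markers r was -0.67 for 1367814_at (rho -0.47) and -0.74 for 1386937_at (rho -0.63), with adjusted permutation p of 0.002 and 0.0008 for r and 0.0995 and 0.0184 for rho. Without the 2 arrays most extreme in the signal of that probe set r was -0.44 and -0.65, and within groups it was -0.62 and -0.70. With astrocyte markers r was -0.55 and -0.48 (adjusted p = 0.0197 and 0.0464; rho -0.49 and -0.42, adjusted p = 0.0995 and 0.106) and was -0.33 and -0.23 without the 2 most extreme arrays. Neuron markers gave r = 0.55 for 1367814_at (adjusted p = 0.0186; rho 0.49, adjusted p = 0.0995; 0.46 without the 2 arrays) and 0.42 for 1386937_at (adjusted p = 0.0933; 0.11 without the 2 arrays). GABAergic neuron markers gave 0.33 for 1367814_at (adjusted p = 0.194; 0.18 without the 2 arrays) and 0.50 for 1386937_at (adjusted p = 0.0306; rho 0.41, adjusted p = 0.106; 0.33 without the 2 arrays). Markers of excitatory projection neurons had the other sign, at -0.15 and -0.24 (adjusted p = 0.609 and 0.386), so the 3 neuronal lists differed in the sign of r. Of the 6 microglia genes, 5 had a tested probe set and none was at 0. The summed microglia signal ran between 3634.1 and 4795.3 after pain, 3636.2 and 4792.3 after isoflurane, 3611.6 and 6146.9 after conditioning and 3582.7 and 4575.4 after conditioning under isoflurane, against 2943.1 to 4790.2 at baseline. The mean microglia score was 0.13 after conditioning, where Atp1b1 was lowest, and -0.06 at baseline, where it was highest. Other marker lists differed more in that comparison, although 0 of their probe sets were called. Oligodendrocyte markers were higher after conditioning than at baseline on 13 of 13 probe sets (median 0.34, 8 at unadjusted p under 0.05), astrocyte markers on 16 of 17 (median 0.17, 7 under 0.05) and microglia markers on 6 of 6 (median 0.22, 0 under 0.05). Striatal markers were higher on 0 of 5 (median -0.39, 3 under 0.05) and GABAergic neuron markers on 2 of 8 (median -0.25, 0 under 0.05), where 49.9% of all probe sets were higher. In the interaction, 0 of 13 oligodendrocyte probe sets had a positive value (median -0.34) and 5 of 5 striatal ones did (median 0.37), against 50.8% of all. The summed oligodendrocyte signal ran between 36714.7 and 48391.0 after conditioning and 26476.2 and 43416.9 at baseline, and the striatal sum between 1746.8 and 2836.9 after conditioning and 1782.2 and 5066.9 at baseline. With oligodendrocyte markers Atp1b1 gave r of -0.28 and -0.26, and with striatal markers 0.25 and 0.39 (adjusted p between 0.134 and 0.381). The part of cell makeup in the Atp1b1 differences was not tested.

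Atp1b3 gave r = 0.53 with choroid plexus markers (adjusted permutation p = 0.0306) and rho = 0.31 (adjusted permutation p = 0.232). Without the 2 arrays most extreme in Atp1b3 signal r was 0.23. Baseline replicate 1, with an Atp1b3 signal of 1738.6, had a choroid plexus score of 3.53, where the transthyretin gene Ttr reached 15284.2 against a median of 228.5 over all arrays. That relation thus rested on 1 or 2 arrays. Without baseline replicate 1, the differences of Atp1b3 from baseline were 0.046 after conditioning and 0.021 after conditioning under isoflurane.

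**Figure D5:**
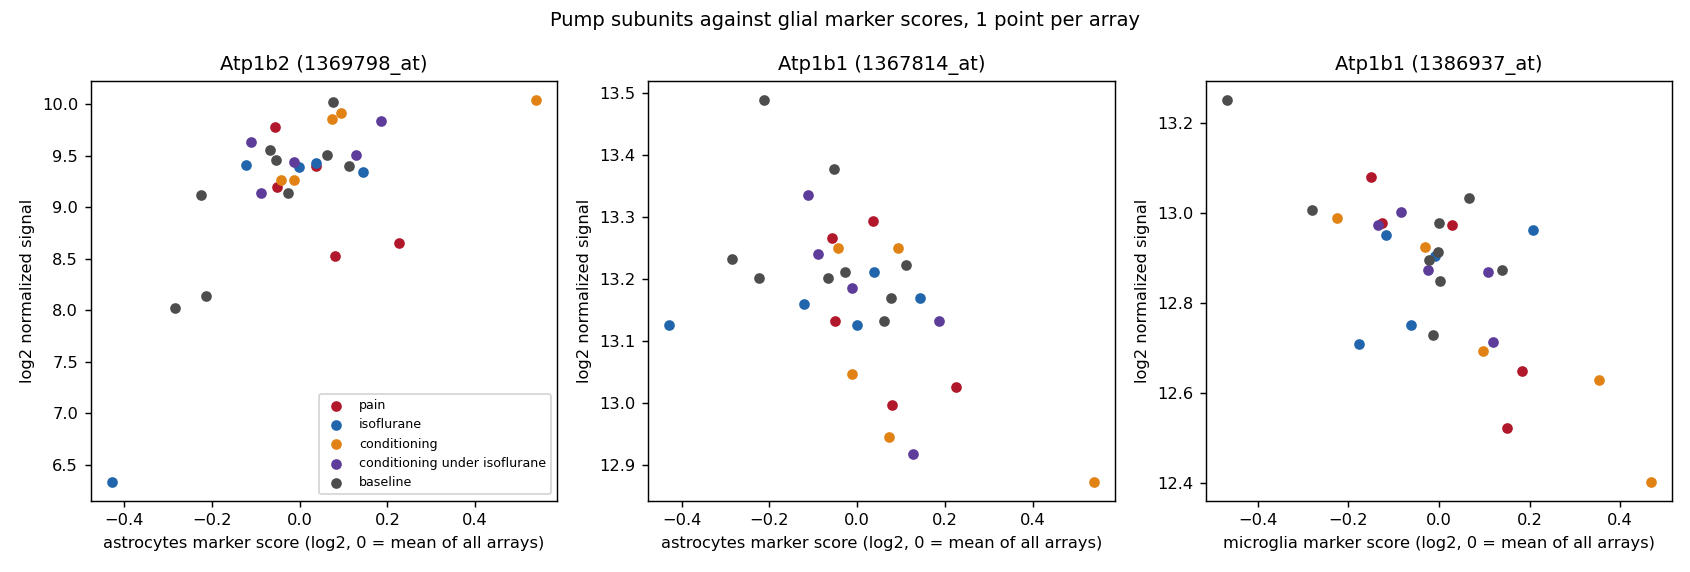
Normalized log2 signal of Atp1b2 against the astrocyte marker score, and of the Atp1b1 probe sets against the astrocyte (1367814_at) and microglia (1386937_at) marker scores, with 1 point per array coloured by group. Isoflurane replicate 2, at a score of -0.43, lies far below the other arrays for Atp1b2 (r = 0.64 with it, 0.50 without), and Atp1b1 is lower where microglia markers are higher (r = -0.74).

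Other genes around the pump were read from lists chosen with earlier results of these data known. Among 15 further pump genes, the FXYD proteins (small membrane proteins that tune the pump's affinity for its ions), the NKAIN proteins (which bind the beta1 subunit) and related subunits and proton pumps, 8 had a tested probe set and 0 of 8 were called in any comparison. Atp1a4, Atp1b4, Atp4a, Atp4b, Atp12a, Fxyd2 and Fxyd4 were below the filter. After conditioning, 4 of 8 stood higher than at baseline, with a median of 0.05 against 0.00 over all probe sets. At unadjusted p under 0.05, Nkain4 was at 0.40 (SE 0.15, adjusted p = 0.417) and Fxyd1, or phospholemman, at 0.35 (SE 0.15, adjusted p = 0.465), while Fxyd7, found mainly in brain, was at -0.43 (SE 0.16, adjusted p = 0.419). After pain, Fxyd5 was at 0.63 (SE 0.18, adjusted p = 0.346) and Nkain1 at -0.67 (SE 0.28, adjusted p = 0.499) against baseline. Nkain4 was also at 0.43 after isoflurane (SE 0.15, adjusted p = 0.922), and its interaction was -0.65 (SE 0.22, adjusted p = 0.959). These regulators, named because of their low p-values, thus had larger estimates than the beta subunits Atp1b1 and Atp1b3. The estimates went in both directions, had larger SEs and did not pass the test.

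Calcium pumps and sodium-calcium exchangers, which export calcium and in part draw on the sodium gradient, had 13 tested probe sets for 9 genes, and 0 of 13 were called in any comparison. After conditioning 9 of 13 were higher than at baseline, with a median of 0.07, where 49.9% of all probe sets were higher. After isoflurane 4 of 13 were higher than at baseline (median -0.12, 51.0% of all), and conditioning under isoflurane put 11 of 13 above isoflurane alone (median 0.10, 50.7% of all) and 9 of 13 above baseline (median 0.06, 51.1% of all). After conditioning Atp2b2, a plasma membrane calcium pump, was at -0.39 on 1387285_at (SE 0.16, adjusted p = 0.450) but at 0.07 on 1368698_at (SE 0.11, adjusted p = 0.860). The mean log2 signal of 1387285_at was 7.30, close to the filter at 7.26. Slc24a3, a potassium-dependent exchanger, was at -0.30 on 1376165_at (SE 0.15, adjusted p = 0.489). Atp2b2 was also at -0.40 after isoflurane (1387285_at, SE 0.16, adjusted p = 0.922). The interaction was 0.72 for that Atp2b2 probe set (SE 0.25, unadjusted p = 0.00686) and 0.55 for Slc24a3 (SE 0.22, unadjusted p = 0.0185), with an adjusted p of 0.959 for both. The 2 Atp2b2 probe sets also disagreed in conditioning minus pain, at -0.49 for 1387285_at and 0.26 for 1368698_at. Slc8a2, a sodium-calcium exchanger of brain, was at 0.40 after pain (SE 0.15, adjusted p = 0.473).

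Carriers and channels that use or share the sodium and potassium gradients had 14 tested probe sets for 8 genes, and 0 of 14 were called. After conditioning 11 of 14 were higher than at baseline, with a median of 0.09 against 0.00 over all probe sets, of which 49.9% were higher. The lowest p-values belonged to Slc1a3 on 1368565_at, at 0.23 (SE 0.06, unadjusted p = 0.00132, adjusted p = 0.415), and to Aqp4, the water channel of astrocytes, on 1372190_at, at 0.37 (SE 0.12, unadjusted p = 0.00431, adjusted p = 0.415). Both also belong to the astrocyte list, whose mean score was 0.13 after conditioning and -0.07 at baseline. After pain 10 of 14 and after isoflurane 7 of 14 were higher than at baseline, with medians of 0.04 and -0.01.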

How the data were processed

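Total RNA of rat basolateral amygdala was measured on 29 one-colour arrays in 5 groups taken from the sample titles. The values are linear intensities deposited by the authors as 1 table, in which all arrays have been scaled to 1 trimmed mean (500.08 to 500.12, with 2% of probe sets cut at either end). The software of that step is not given in the sources used here. Array medians spanned 0.47 on the log2 scale, so quantile normalization was applied before log2, with values under 16 set to 16. The 57 control probe sets were left out, and 9520 of the other 15866 passed a filter on mean log2 signal (40th percentile, 7.26). Gene names came from the platform annotation, in which 12783 probe sets have 1 symbol, 312 several and 2771 none, and 12748 of the 1-symbol probe sets matched a current gene by identifier.

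limma 3.58.1 in R 4.3.3 fitted 1 mean per group (lmFit, then eBayes with trend) on all 29 arrays, with 7 differences between groups, 1 interaction and the F test, and Benjamini-Hochberg adjustment over all 9520 at a threshold of 0.05 in each. SEs, intervals and adjusted p-values are from that fit, and the fit was tested on simulated data. The alternatives were 2 other scalings, 2 other filters, a floor of 64, no trend, only the arrays compared, a replicate block, averaged probe sets, array weights, either baseline subset and leaving out each array.

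Named were all probe sets of the 3 genes, at most the 3 lowest p-values of each pump list in a comparison, and the 3 most and 1 least similar genes. The members, lists and alternatives were chosen with earlier results of these data known. With arrays, their number limits the precision, and the median SE of a log2 difference from baseline was 0.13.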

Additional observations from a re-analysis of the deposited data

Results flagged for a closer look

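In groups of 5 to 9 arrays, 20 in all (4 probe sets, 5 groups), 2 arrays lay apart from the rest of their group by Dixon's test at the 95% level, which chance alone gives in about 1 in 20 groups. Atp1b2 on isoflurane replicate 2 was at 6.33 on the log2 scale, with the nearest isoflurane array at 9.34, a gap that makes up 0.97 of the group's range against a critical value of 0.71. Atp1b3 on replicate 2 of conditioning under isoflurane was at 10.11, with the nearest array of its group at 10.27, a gap of 0.82 of the range against the same critical value.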

How the results depend on the processing

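Each of the 4 probe sets, and the number of them called, was recomputed in every comparison under up to 12 alternatives and with each array left out. Differences and counts together made 1040 values. In none was a beta subunit probe set called, and the lowest adjusted p was 0.118. Atp1b1 kept its lower mean in all 4 treated groups against baseline in each of these, but the size of the difference moved by more than 1.5 times in several, between -0.30 and -0.03 for pain and between -0.16 and -0.0060 for conditioning under isoflurane on 1386937_at. Other differences, all near 0 or of wide error, changed sign. With the deposited scaling, Atp1b2 in pain minus baseline was 0.025 and Atp1b1 (1367814_at) in conditioning under isoflurane minus isoflurane -0.014. With arrays centred on their medians, Atp1b3 was -0.031 in pain minus baseline, -0.0044 in isoflurane minus baseline, 0.026 in conditioning under isoflurane minus conditioning and 0.030 in the interaction, and Atp1b1 was 0.019 (1367814_at) in conditioning minus pain and -0.025 (1367814_at) and -0.0039 (1386937_at) in conditioning under isoflurane minus isoflurane. With array weights Atp1b2 was 0.20 in pain minus baseline and Atp1b3 0.022 in conditioning minus baseline. Against baseline replicates 1 to 5 only, Atp1b3 was -0.082 in isoflurane minus baseline and 0.056 in the interaction. Against replicates 6 to 9 only, Atp1b2 was 0.28 in pain minus baseline and -0.11 in the interaction, and Atp1b3 was 0.13 in conditioning and 0.11 in conditioning under isoflurane minus baseline. The causes were not tested.

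Replicate numbers gave no clear pairing of the arrays, and in no comparison did all 5 pairs exceed r = 0.1. In conditioning and baseline, arrays with the same number deviated together by r between 0.04 and 0.14 (mean 0.09, against -0.01 for other pairs). In conditioning under isoflurane and baseline r was between -0.15 and -0.02. Whether the numbers stand for a shared batch is not given in the labels. With the replicate block no call changed, the Atp1b1 differences in conditioning minus baseline were -0.15 and -0.16, and Atp1b3 was -0.082 in isoflurane minus baseline and 0.056 in the interaction.

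Leaving out 1 array gave ranges that span 0 for Atp1b2 in pain minus baseline (-0.21 to 0.11), isoflurane minus baseline (-0.53 to 0.24) and the interaction (-0.40 to 0.37). So it did for Atp1b3 in isoflurane (-0.027 to 0.10), conditioning (-0.064 to 0.046) and conditioning under isoflurane minus baseline (-0.072 to 0.021), in conditioning under isoflurane minus conditioning (-0.055 to 0.024) and in the interaction (-0.13 to 0.0010). For Atp1b1 in conditioning under isoflurane minus isoflurane the ranges were -0.039 to 0.065 (1367814_at) and -0.0059 to 0.074 (1386937_at).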
